A study of Danio rerio with 40 samples.

Results

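The *hsd11b2* amplicon was 1 of 6 gene regions whose DNA methylation was measured in zebrafish gonads. It lies on chromosome 7 at chr7:34854510-34854994 (GRCz11, minus strand) and spans 485 bp, from 362 bases before to 123 bases after the transcription start. Its members were taken as the 9 deepest cytosines of this window, as many as the study's amplicon list counts, out of 99 CpG sites in all 6 amplicons chosen in the same way. Counted from the transcription start, 5 of them lie before it, at −276, −266, −223, −186 and −138, and 4 after it, at +36, +39, +65 and +93. On the chromosome these are positions 34854908, 34854898, 34854855, 34854818 and 34854770 before the start and 34854597, 34854594, 34854568 and 34854540 after it. The annotation of exons and untranslated regions on this build was not used here, so a site is placed only by its distance from the start.

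The gene *hsd11b2* encodes 11-beta-hydroxysteroid dehydrogenase type 2. The enzyme oxidises cortisol, the main stress steroid of fish, to the inactive cortisone, and the same oxidation of an 11-hydroxylated androgen gives 11-ketotestosterone, the principal androgen of male teleosts. Methylation of cytosines in CpG pairs around a transcription start is a chromatin mark that is often, but not always, found at genes with little transcription. The gene therefore belongs both to the response to crowding stress and to the synthesis of gonadal steroids, together with *cyp19a1a*, *cyp11c1* and *hsd17b1*.

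The fish were of the AB laboratory strain and of a single family, and their gonads were taken at 90 days post-fertilization (dpf). The 4 groups held 10 fish each: ovaries and testes from a control density of 9 fish/L, and both gonads from fish that had been confined at 66 fish/L between 18 and 45 dpf and kept at low density before and after. Whole gonads were used, so a higher share of methylated cells and more methylation within each cell cannot be told apart. The tank of each fish is not given in the sources used here, so an effect of the tank cannot be told apart from that of density.

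The region was amplified from DNA in which bisulfite had turned unmethylated cytosines into uracils, which are read as thymines. The primers are shown because they delimit the region and match the converted strand. The forward primer carries 0 cytosines and the reverse primer 0 guanines in 25 bases each, so neither holds a base that matches an unconverted cytosine.
hsd11b2 forward: gtaaagttttggttattgggttttg
hsd11b2 reverse: caaccataccaccactaaaaacata

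The methylation level of a site was the percentage of methylated reads among all reads at that site, and the level of a fish was the unweighted mean over its 9 sites. All 9 sites passed the minimum of more than 5 reads in all 40 fish. Coverage of single sites ranged from 139 to 29481 reads. The median coverage per fish was between 163 and 27887 reads in ovaries (median 5760) and between 1666 and 29186 in testes (median 11709). Only 3 fish, all ovaries, had a median under 1000 reads: G17 at 9 fish/L with 374, G6 at 66 fish/L with 428 and G26 at 66 fish/L with 163. The 95% Wilson interval of a single value was narrowest in testis G10 at 66 fish/L at +36 (half-width 0.312 percentage points) and widest in ovary G26 at 66 fish/L at +65, where 81 of 159 reads were methylated (50.9%, 43.2 to 58.6%). At the lowest coverage, 3 reads amount to 2.16%. These figures cover counting error only, since PCR copies are not independent molecules.

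Gene expression in these gonads was not analysed here, and the labelled sex was checked on 2 other amplicons. *dmrt1*, a transcription factor of testis development, had a level of 21.6 to 51.5% in the 20 ovaries and of 0.9498 to 5.04% in the 20 testes. *cyp19a1a*, the gonadal aromatase, had a level of 24.5 to 50.2% in ovaries and of 69.5 to 95.9% in testes. The 20 ovaries and the 20 testes did not overlap in either.

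The *hsd11b2* promoter was partly methylated in ovaries and almost fully methylated in testes. In ovaries at 9 fish/L the level ran from 17.9% (G1) over a median of 29.4% to 39.7% (G2), with a mean of 28.8% ± 7.87 (SD, n = 10). In ovaries at 66 fish/L it ran from 17.004% (G22) over 29.8% to 35.9% (G12), with a mean of 28.5% ± 6.16 (SD, n = 10). The range of the first ovary group thus contained most of the second. In testes at 9 fish/L the lowest, median and highest levels were 88.1% (G18), 90.7% and 95.1% (G3), with a mean of 91.0% ± 2.11 (SD, n = 10). In testes at 66 fish/L they were 86.5% (G21), 91.0% and 92.4% (G8), with a mean of 90.6% ± 1.84 (SD, n = 10). The lowest testis lay far above the highest ovary, whereas the 2 densities overlapped within each sex.

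**Figure D1:**
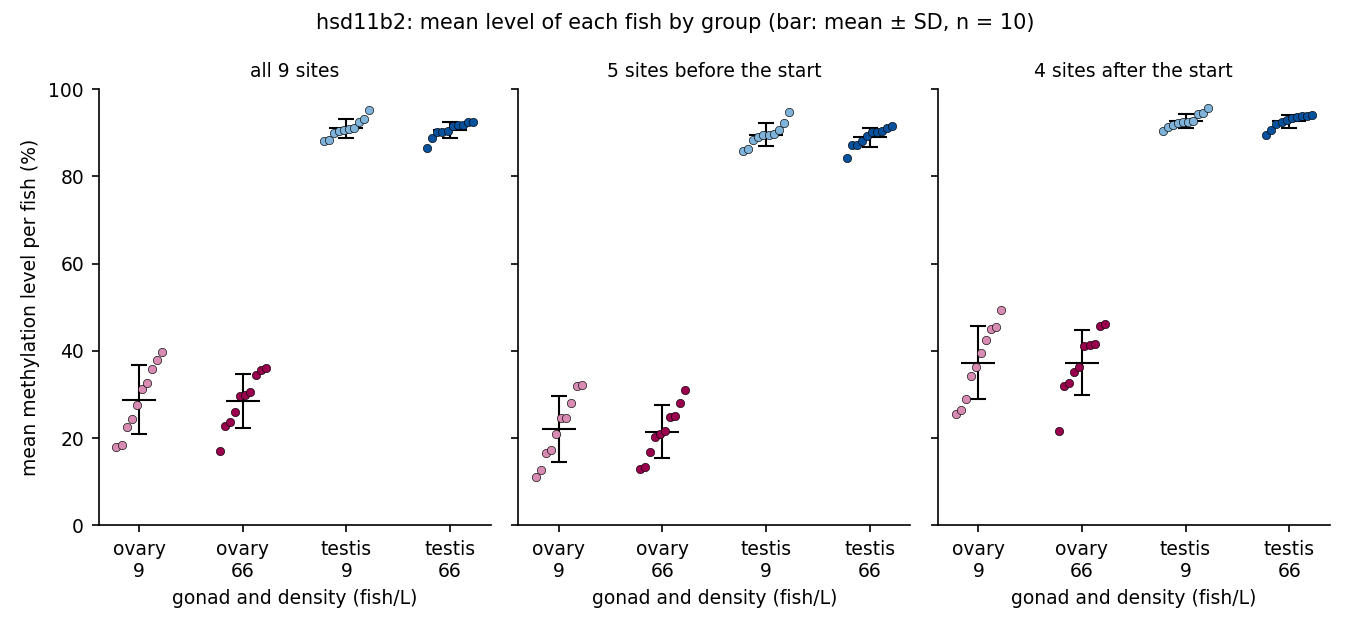
Mean methylation level of each fish (%, y axis) by gonad and density (x axis), over all 9 sites, the 5 sites before the start and the 4 sites after it; points are fish, sorted within a group, and bars are the mean ± SD (n = 10). Ovaries span 17.004 to 39.7% and testes 86.5 to 95.1% over all sites, and the densities overlap within each sex.

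The mean over 20 testes was 90.8% ± 1.94 (SD) and that over 20 ovaries 28.7% ± 6.88 (SD), a difference of 62.1 percentage points (two-sided permutation test within density with 100000 resamples, p = 1e-05, the smallest they can give, adjusted over the 6 amplicons p = 1.2e-05). The difference was far larger than the spread between fish. All 9 sites were higher in testes (permutation test, Benjamini-Hochberg adjusted over all sites tested, p = 1.75e-05 at each), beside 48.7% of the 117 sites tested in the 6 amplicons that were called higher in testes and 20.5% called lower. The 117 tested include these 9 and also listed cytosines outside the 99 CpG sites. At each of the 9 sites the lowest testis was above the highest ovary.

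The separation of the sexes was widest upstream. At −223 the ovaries ranged from 8.07% (G1 at 9 fish/L) to 30.1% (G2 at 9 fish/L) around a mean of 19.3% ± 7.12 (SD, n = 20), the lowest mean of the 9 sites. At the same site the testes ranged from 85.3% to 95.2% with a mean of 90.1% ± 2.53 (SD, n = 20), which gave a difference of 70.8 percentage points. The highest ovary and the lowest testis at −223 were 55.2 percentage points apart.

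The neighbouring sites −266 and −276 gave close values. At −266 the level was 20.01% ± 5.38 in ovaries and 90.4% ± 2.51 in testes (SD, n = 20 each), 70.4 percentage points apart, and the empty interval between the sexes was 56.2 percentage points, the widest of the 9 sites. At −276 the level was 21.6% ± 7.69 in ovaries and 90.3% ± 2.38 in testes (SD, n = 20 each), 68.8 percentage points apart. These outermost sites were therefore among the lowest in ovaries while being intermediate in testes.

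The 2 sites nearest to the start on its upstream side were a little higher in ovaries and the lowest of all in testes. At −186 the level was 23.5% ± 7.35 in ovaries and 87.4% ± 2.69 in testes (SD, n = 20 each), a difference of 64.0 percentage points. At −138 it was 24.4% ± 7.65 and 88.0% ± 2.25 (SD, n = 20 each), a difference of 63.5 percentage points. The order of the sites along the region thus differed between the sexes, with −223 at the bottom in ovaries and −186 at the bottom in testes.

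Between −138 and +36, a stretch of 173 bases without a member site, the level rose in every fish, by a mean of 12.9 percentage points ± 4.03 (SD) in ovaries and 5.14 ± 1.47 (SD) in testes. At +36 the level was 37.3% ± 8.17 in ovaries and 93.1% ± 1.42 in testes (SD, n = 20 each). At +39, only 3 bases further, it was 41.3% ± 7.70 and 93.1% ± 1.43 (SD, n = 20 each), the highest mean of the 9 sites in both sexes and the smallest difference between the sexes, 51.8 percentage points. The highest ovary reached 51.7% at +36 and 55.2% at +39.

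At +65 the level was 40.2% ± 9.10 in ovaries and 92.4% ± 1.62 in testes (SD, n = 20 each), 52.2 percentage points apart. The highest ovary value of the whole amplicon was found here, 55.6% of 10393 reads in G18 at 66 fish/L, which had 42.4% at +39. At +65 the lowest testis and the highest ovary were 33.4 percentage points apart, the narrowest separation of the 9 sites. The last site, +93, fell back towards the upstream level in ovaries, with 30.4% ± 8.38 against 92.0% ± 1.92 in testes (SD, n = 20 each), a difference of 61.6 percentage points.

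**Figure D2:**
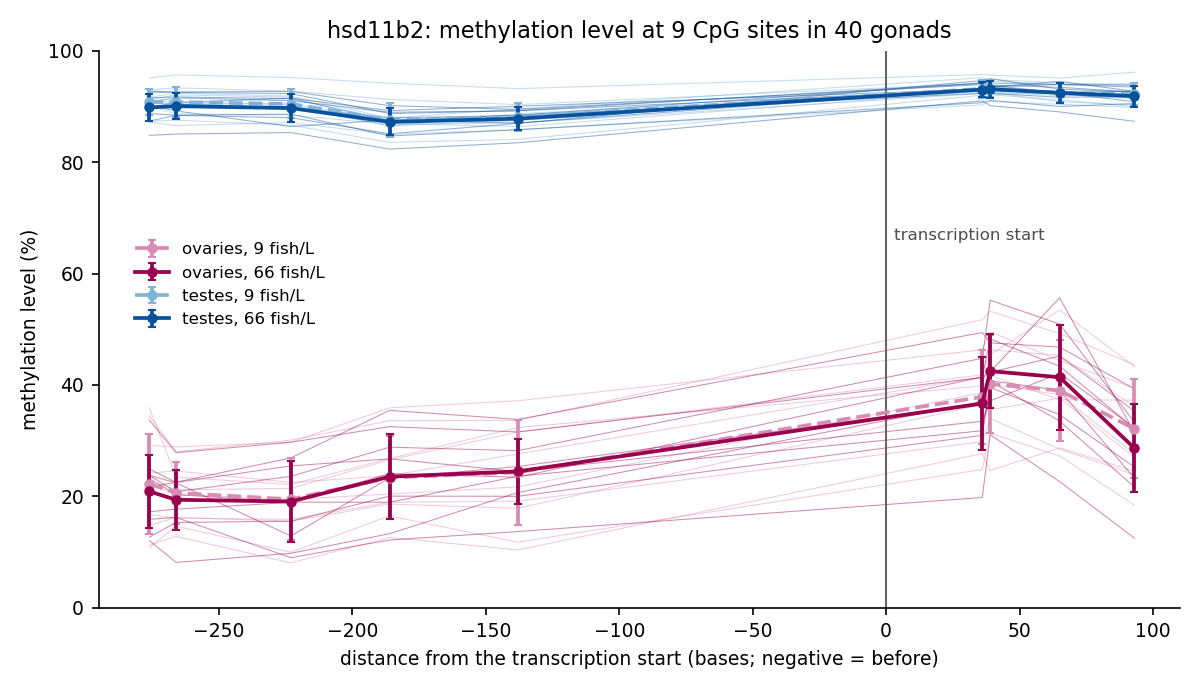
Methylation level (%, y axis) at the 9 CpG sites against their distance from the transcription start in bases (x axis); thin lines are the 40 fish and thick lines with bars the group means ± SD (n = 10). Testes stay between 82.3 and 96.2% along the region, while ovaries rise from a mean of 19.3% at −223 to 41.3% at +39 and fall to 30.4% at +93.

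Neighbours in the order of the means were not always distinct. In ovaries +39 was above +65 in 14 of 20 fish, by 1.15 percentage points ± 5.48 (SD of the difference), and the mean order among the upstream sites held in 10 to 12 of 20 fish for each step. By contrast +36 was above +93 in 19 of 20 ovaries, by 6.87 ± 3.89 percentage points, and +93 was above −138 in 18 of 20, by 5.995 ± 3.92. In testes +39 and +36 differed by 0.0541 ± 0.556 percentage points, whereas −223 was above −138 in 19 of 20 fish, by 2.13 ± 1.15. The lowest site after the start, +93, was above the next site in the order, −266, in 18 of 20 testes, by 1.60 ± 1.22. The step from the lowest site after the start to the highest before it thus held in 18 of 20 fish of each sex.

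The sites were then averaged on each side of the start. Before the start, the level of ovaries ranged from 11.04% (G1 at 9 fish/L) to 32.2% (G6 at 9 fish/L) with a mean of 21.7% ± 6.64 (SD, n = 20), and that of testes from 84.2% (G21 at 66 fish/L) to 94.7% (G3 at 9 fish/L) with a mean of 89.2% ± 2.38 (SD, n = 20). After the start, ovaries ranged from 21.5% (G22 at 66 fish/L) to 49.5% (G2 at 9 fish/L) with a mean of 37.3% ± 7.76 (SD, n = 20), and testes from 89.4% (G21 at 66 fish/L) to 95.7% (G3 at 9 fish/L) with a mean of 92.7% ± 1.53 (SD, n = 20). Testes exceeded ovaries by 67.5 percentage points before the start and by 55.4 after it (permutation test within density, p = 1e-05 for each, adjusted over 5 tests p = 1e-05).

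Methylation was higher after the start than before it in all 20 ovaries and all 20 testes. The difference was 15.6 percentage points ± 3.98 (SD, 8.11 to 22.2) in ovaries and 3.44 ± 1.32 (SD, 0.987 to 6.67) in testes (exact two-sided sign-flip permutation test over 20 fish, p = 1.91e-06 in each sex, the smallest it can give, adjusted over 5 tests p = 4.77e-06). In 18 of 20 ovaries and 17 of 20 testes every site after the start was above every site before it. The step across the start was 12.1 percentage points smaller in testes than in ovaries (permutation test within density, p = 1e-05, adjusted over 5 tests p = 1e-05). On the logit scale, which stretches differences near 0 and 100%, the step remained smaller in testes, with a difference of −0.372 logit units (permutation p = 1e-05). With all listed cytosines of the window averaged, the step in testes had the opposite sign, −4.00 percentage points (adjusted p = 0.005), because that average takes in 12 further positions, most of them near 0%.

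**Figure D3:**
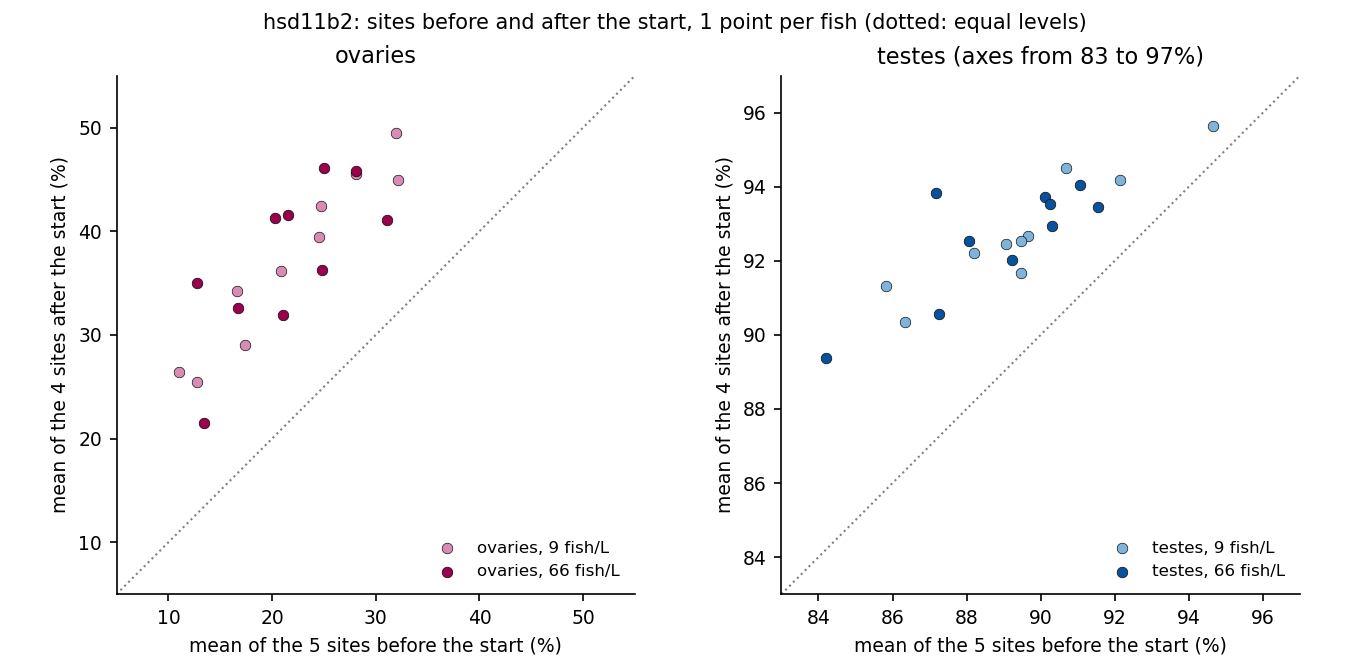
Mean level of the 4 sites after the start (%, y axis) against that of the 5 sites before it (%, x axis), 1 point per fish, ovaries on the left and testes on the right, the latter on axes from 83 to 97%; the dotted line marks equal levels. All 40 fish lie above the line, by 8.11 to 22.2 percentage points in ovaries and by 0.987 to 6.67 in testes.

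Fish that were high on one side of the start were high on the other. The levels before and after the start correlated across 20 ovaries (Pearson's r = 0.859, permutation p = 1e-05; Spearman's rho = 0.847, permutation p = 1e-05, adjusted over 14 relations p = 7e-05 and 0.00014) and across 20 testes (r = 0.862, permutation p = 1e-05; rho = 0.808, permutation p = 4.00e-05, adjusted p = 7e-05 and 0.00028). Without the 2 fish farthest from the median, r was 0.828 in ovaries and 0.744 in testes. Within the densities, r was 0.966 at 9 fish/L and 0.711 at 66 fish/L in ovaries and 0.928 and 0.790 in testes, so the relation was present in each of the 4 groups.

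The same was seen site by site. Across 20 ovaries, r between 2 sites before the start was between 0.774 and 0.939, between 2 sites after it between 0.744 and 0.890, and between sites on opposite sides between 0.599 and 0.884. Across 20 testes these ranges were 0.869 to 0.965, 0.827 to 0.924 and 0.693 to 0.888. The values of 1 fish share a library and its reads, and they are given as a description. Testis G3 at 9 fish/L was the highest testis at 9 of 9 sites and testis G21 at 66 fish/L the lowest at 8 of 9. In ovaries no single fish held the extremes: G22 at 66 fish/L was lowest at 4 sites and G1 at 9 fish/L at 3, while G2 and G6 at 9 fish/L were each highest at 3.

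Ovaries differed among themselves more than testes did. The mean absolute deviation from the group median was 5.67 percentage points in ovaries and 1.44 in testes, a difference of 4.23 (permutation test within density, p = 2e-05). On the logit scale, which allows for the narrow room near 100%, the difference was 0.110 (p = 0.0737), and it no longer passed the threshold. Within a fish, the range over the 9 sites was also larger in ovaries, from 17.3 to 42.7 percentage points, than in testes, from 2.96 to 9.57.

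The second question of the design was whether confinement at 66 fish/L between 18 and 45 dpf left a trace in the methylation of adult gonads. In ovaries the level at 66 fish/L differed from that at 9 fish/L by −0.289 percentage points (two-sided exact permutation test, p = 0.927, adjusted over the 6 amplicons p = 0.927), with a 95% interval from −6.98 to 6.38. In testes it differed by −0.416 percentage points (exact permutation p = 0.648, adjusted p = 0.777), with a 95% interval from −2.29 to 1.43. In the 4 code numbers that occur among testes at both densities, the level was lower at 66 fish/L in 4 of 4 pairs: 90.1% against 90.6% in G10, 88.7% against 89.98% in G20, 86.5% against 90.4% in G21 and 91.7% against 92.4% in G24. Their mean difference was −1.57 percentage points (exact sign-flip permutation p = 0.125, the smallest that 4 pairs allow). In the 4 code numbers shared among ovaries the level was lower at 66 fish/L in 3, with a mean difference of −1.35 (exact sign-flip permutation p = 0.75). Fish of the same number are different fish, and the labels name no tank or day that they share. The interaction of sex and density was −0.126 percentage points (permutation of residuals, p = 0.969, adjusted p = 0.969). The observed difference between the densities was thus smaller than the SD between fish in both sexes. The intervals were wider in ovaries than in testes. In ovaries they reached −6.98, in size beyond the SD of 6.16 at 66 fish/L but not that of 7.87 at 9 fish/L. In testes they reached −2.29, in size beyond the SD at both densities (1.84 and 2.11). Decreases of about the size of the spread were therefore not excluded. The upper end in ovaries, 6.38, was likewise beyond the SD of 6.16 but not that of 7.87. In testes the upper end, 1.43, was below the SD at both densities.

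The same held on each side of the start. In ovaries the difference was −0.526 percentage points before the start (95% interval −6.93 to 5.92) and 0.00643 after it (−7.53 to 7.49). In testes it was −0.626 before the start (−2.92 to 1.63) and −0.152 after it (−1.64 to 1.32). By exact permutation p was 0.859 and 0.999 in ovaries and 0.574 and 0.831 in testes.

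Single sites did not pass the test either. None of the 9 sites was called in ovaries or testes (0 of 9 at an adjusted p under 0.05 and 0 of 9 at an unadjusted p under 0.05, by the exact permutation test and by a quasi-binomial model on reads), beside 0% of the 117 sites tested in ovaries and 0% of the 120 tested in testes, of which 5 and 5 had an unadjusted permutation p under 0.05, and 9 and 7 by the quasi-binomial model. In ovaries the site differences ran from −3.47 percentage points at +93 (32.1% ± 8.89 at 9 fish/L and 28.7% ± 7.91 at 66 fish/L, SD, n = 10 each, exact permutation p = 0.367) to 2.39 at +65 (39.0% ± 9.07 and 41.4% ± 9.46, exact permutation p = 0.568). In testes they ran from −0.985 at −276 (90.8% ± 2.36 and 89.8% ± 2.42, SD, n = 10 each, exact permutation p = 0.371) to 0.0215 at +65 (92.4% ± 1.54 and 92.5% ± 1.78, exact permutation p = 0.977). The 95% intervals of all 9 sites included 0 in both sexes. The difference was below 0 at 5 of 9 sites in ovaries and at 8 of 9 in testes, and since the sites of a fish move together these are not independent.

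**Figure D4:**
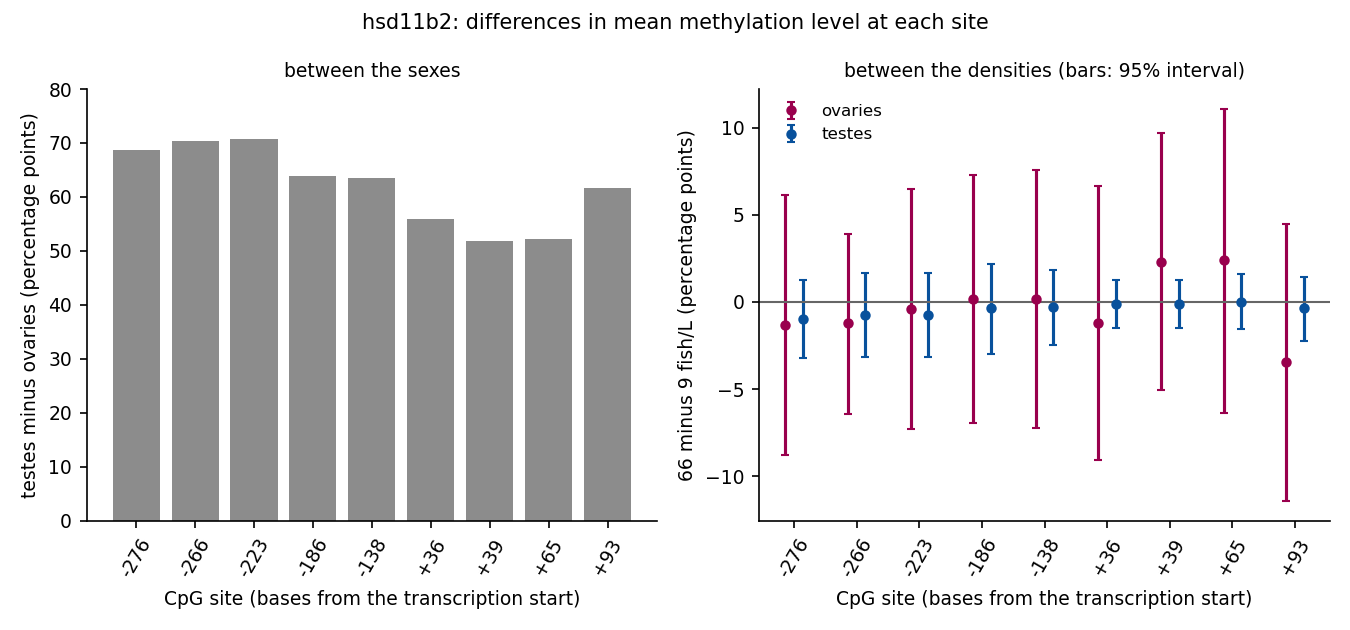
Difference in mean methylation level (percentage points, y axis) at each CpG site (x axis, bases from the start), testes minus ovaries on the left as bars and 66 minus 9 fish/L on the right as points with 95% permutation intervals. The sex difference runs from 51.8 at +39 to 70.8 at −223, and every density interval includes 0.

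The 4 steroidogenic amplicons had higher levels in testes than in ovaries. *cyp19a1a*, the aromatase that turns androgens into estrogens, differed by 55.05 percentage points (37.6% ± 7.45 in ovaries and 92.7% ± 5.55 in testes, SD, n = 20 each). *hsd17b1*, which reduces estrone to estradiol, differed by 48.1 (31.3% ± 6.68 and 79.4% ± 0.749). *cyp11c1*, the 11-beta-hydroxylase that makes cortisol and the precursor of 11-ketotestosterone, differed by 21.6 (68.9% ± 9.33 and 90.5% ± 1.87). The permutation test within density gave p = 1e-05 (adjusted p = 1.2e-05) for each of the 4 amplicons.

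The sex difference of *hsd11b2* exceeded that of *cyp11c1* by 40.6 percentage points, that of *hsd17b1* by 13.97 and that of *cyp19a1a* by 7.06 (permutation test within density, adjusted over 3 comparisons p = 1.5e-05, 1.5e-05 and 0.00062). With all listed cytosines of each amplicon in the average, the first stayed at 19.4 (adjusted p = 3e-05), but the difference from *cyp19a1a* was 1.67 (adjusted p = 0.445) and that from *hsd17b1* −2.70 (adjusted p = 0.369). The rank of *hsd11b2* above these 2 genes therefore held for the sites chosen by depth and not for the average over all listed positions. There the sex difference fell from 62.1 to 38.5 in *hsd11b2*, from 55.05 to 36.8 in *cyp19a1a* and from 48.1 to 41.2 in *hsd17b1*. The added positions thus lowered the 3 amplicons unequally. Among the 6 *hsd17b1* sites the sex difference was 18.9 percentage points at 17897597, 35.3 at 17897380 and 57.0 to 61.1 at the others. At the others the sex difference thus lay closer to the 62.1 of *hsd11b2* than the *hsd17b1* mean of 48.1 did. The lead over *hsd17b1* without the 2 low sites was not tested.

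Across fish, the amplicon whose level most resembled that of *hsd11b2* by Spearman's rho was *cyp19a1a* in ovaries and *hsd17b1* in testes. In 20 ovaries rho with *cyp19a1a* was 0.493 (permutation p = 0.0290, adjusted over 14 relations p = 0.0580) and r was 0.514 (permutation p = 0.0219, adjusted p = 0.0512). It was 0.318 without the 2 farthest fish, 0.768 at 9 fish/L and 0.226 at 66 fish/L, so this relation did not pass the adjusted threshold and rested in part on those fish. In 20 testes rho with *hsd17b1* was 0.726 (permutation p = 0.00047, adjusted p = 0.00219) and r was 0.776 (permutation p = 6.00e-05, adjusted p = 0.00028). There r was 0.637 without the 2 farthest fish, 0.744 at 9 fish/L and 0.842 at 66 fish/L. By rho, *dmrt1* (−0.598, adjusted permutation p = 0.0173) and *cyp11c1* (0.540, adjusted permutation p = 0.0357) also passed the threshold in testes. By r they did not (−0.517 and 0.490, adjusted permutation p = 0.0512 and 0.0531).

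Coverage moved with the level in testes. Over 20 testes the level of *hsd11b2* and the log10 of its median coverage had rho = −0.626 (permutation p = 0.00400, adjusted over 14 relations p = 0.0140) and r = −0.522 (permutation p = 0.0187, adjusted p = 0.0512), with r = −0.483 without the 2 farthest fish, −0.566 at 9 fish/L and −0.4997 at 66 fish/L. Testis G3 at 9 fish/L, the highest, had a median of 10412 reads, and testis G21 at 66 fish/L, the lowest, had 26104. In 20 ovaries rho was 0.0421 (permutation p = 0.861, adjusted p = 0.861) and r was −0.182 (permutation p = 0.444, adjusted p = 0.622). The part of coverage in the relations among testes was not tested.

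Besides the 9 sites, 39 further positions of the window were listed in at least 1 fish, and 27 of them never had more than 5 reads. In 37 of these 39, 0.292% of 173873 reads together were methylated, and most of these reads lay at −303 (116205 reads) and −304 (48209 reads). Most of the 37 had too few reads for a level of their own. Among these, −282 had 4 of 20 reads methylated and −300 had 2 of 20, with no fish above 5 reads at either. The 2 others lay immediately before the outermost site, at −278 and −280 (positions 34854910 and 34854912), and followed its methylation. At −278 the mean was 20.7% ± 7.75 in ovaries (11.03 to 41.2%) and 90.4% ± 2.62 in testes (85.7 to 95.4%, SD, n = 20 each), against 21.6 and 90.3% at −276. At −280, with more than 5 reads in 15 ovaries and 18 testes, it was 13.6% ± 10.3 and 85.7% ± 7.26 (SD) on a median of 33 reads in ovaries and 38.5 in testes.

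The 2 positions together took 8.97% ± 0.816 (SD, n = 40) of the reads of all 3 positions. Their reads added to those of −276 came to 96.0% of the coverage at −266, 10 bases away, compared with 87.4% for −276 alone. Adding them to −276 left the sex difference at 62.1 percentage points, an alternative chosen after the data had been seen. The genome sequence of this build was not used here, so whether these positions are CpG pairs was not tested.

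**Figure D5:**
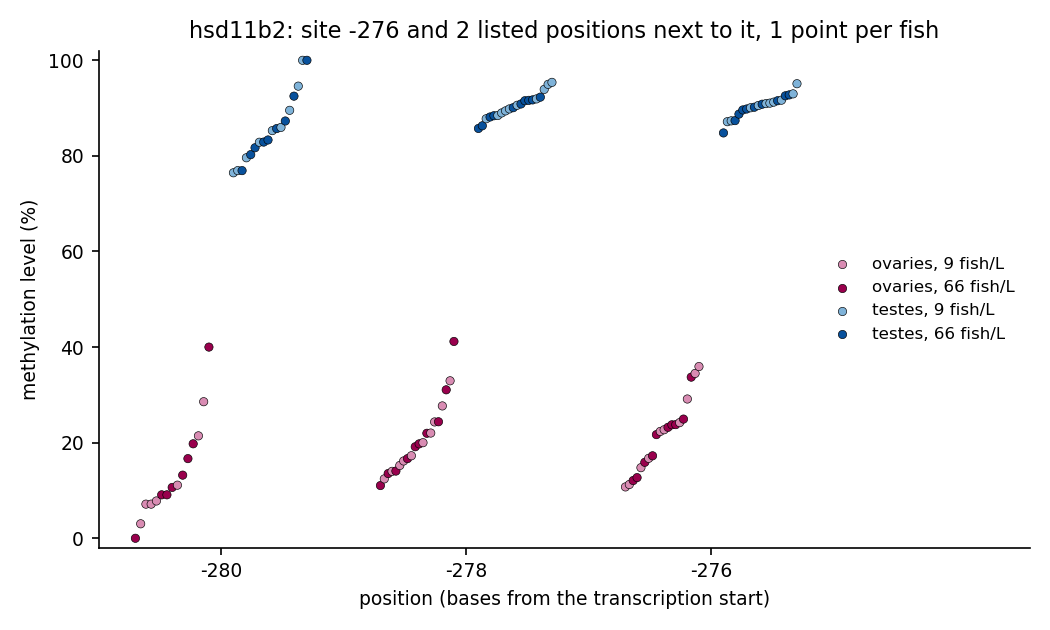
Methylation level (%, y axis) at −280, −278 and −276 (x axis, bases from the start), 1 point per fish with more than 5 reads, sorted within each sex. Means at −278 are 20.7% in ovaries and 90.4% in testes, beside 21.6 and 90.3% at −276; at −280, with few reads, points scatter more.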

How the data were processed

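DNA methylation of 40 zebrafish gonads was measured by bisulfite sequencing of amplicons. According to the submitters' notes and the study's methods, the authors trimmed reads with Trim Galore (0.4.5), aligned them to the bisulfite-converted genome and extracted calls with Bismark (16.0 in the submitters' notes; the methods name another release). Sources also differ on the instrument and on the bisulfite kit. The methods name deduplication, and its extent was not tested. The authors deposited, for each cytosine of a fish, counts of methylated and unmethylated reads without normalization and their percent methylated. The deposited percent equals the share of methylated counts in all 7221 values. Of these values 2183 have 5 reads or fewer, and they were left out.

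The 9 sites are those with the highest median coverage over 40 fish, and their distance from the start follows from the primer list. Fish are the units. Sexes were compared by permutation within density, densities by exact permutation within sex, after against before the start by exact sign flips, and *p*-values were adjusted by Benjamini-Hochberg. Sites needed at least 6 fish per group, and 117 sites were tested between the sexes, 117 between densities in ovaries and 120 in testes. These tested sites include listed cytosines outside the 99 CpG sites. Intervals of density differences invert the exact test. All 9 sites are described. Of the other amplicons, the one with the largest Spearman's rho in each sex is named, with any others whose rho passed the adjusted threshold. Sites, lists and tests were chosen with earlier results of these data known. Positions named beside the 9 sites and single fish were chosen after their values were seen. The *p*-values set a result against the variation between fish of 1 family.

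The code number of a fish (G1, G2 and so on) recurs at both densities for 4 numbers in each sex. The deviations from the group means over the 99 sites correlated between same-numbered testes (r = 0.623 to 0.943) and not between all same-numbered ovaries (r = −0.396 to 0.239). The median r was 0.854 over the same-numbered pairs of testes and −0.628 over the 96 pairs with different numbers, of which 41 had an r above the lowest same-numbered one. In testes r ran from −0.958 to 0.975 between different numbers. The deviations were not scaled by site, so sites with the widest spread weigh most in r, and their part was not tested. The numbers are fish codes, and the labels name no shared tank or day.

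On simulated data, 10 sites were shifted by 15 percentage points and 10 others by 30 in each comparison, and all were adjusted together. The comparisons held 117 (sexes), 117 (ovaries) and 120 (testes) sites. Of the sites shifted by 15 points, 10, 9 and 10 were recovered, and of those shifted by 30, all 10 in each. In the same runs 1, 1 and 2 unchanged sites were called. The simulated base levels lay well below those of testes here, and the noise was independent between sites, whereas real sites of a fish moved together. The simulated SD between fish was smaller than that of the *hsd11b2* level in ovaries at every member site but −266. It was larger than that in testes at every member site. No smaller shift was simulated, so the recovery does not show how small a density difference in *hsd11b2* could have been found. Alternatives changed the coverage minimum, the sites and fish averaged, the scale and the test. Scripts ran in Python 3.11.15 (scipy 1.17.1, numpy 2.4.6, statsmodels 0.14.6, pandas 2.3.3), with matplotlib 3.10.9 for the plots.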

Additional observations from a re-analysis of the deposited data

Results flagged for a closer look

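In testes at 66 fish/L, fish G21 had 87.3% methylation at +93, below the next fish of its group at 90.5%, a gap of 0.489 of the group's range. It was the only fish found apart in 52 tests of a site or mean in a group of 10, of which chance gives about 1 in 20. The step from the sites before to those after the start was smaller in testes than in ovaries by 12.1 percentage points (value −12.1, permutation p = 1e-05). Outside the 9 sites, the listed positions −278 and −280 had means of 90.4 and 85.7% in testes.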

How the results depend on the processing

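The sex difference of *hsd11b2* kept its direction and side of the threshold under all alternatives, with 38.5 to 65.1 percentage points over those in percent and 3.24 on the logit scale. It did so also before the start (44.4 to 68.7) and after it (28.7 to 56.3). The step across the start in ovaries (11.7 to 16.7) and its difference between the sexes (−15.7 to −12.0) did so too. Between the sexes 77 to 79 sites were called under the alternatives and 81 in the main test. Coverage minima of 0, 30 and 100 reads changed no value of the 9 sites, since the lowest coverage was 139 reads. Without the 3 ovaries under 1000 reads the sex difference was 63.0.

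Averaging all listed cytosines turned the density difference to 0.725 in ovaries and 0.0244 in testes and the step in testes to −4.00. It brought the lead of *hsd11b2* over *cyp19a1a* to 1.67 and over *hsd17b1* to −2.70, and the difference in spread to 1.85 (p = 0.0616), which the logit scale brought to 0.110. A 20% trimmed mean gave a density difference of 0.0611 in testes and an interaction of 0.0938, and a quasi-binomial model on reads gave 0.827 in ovaries. None of these density differences passed the threshold (adjusted p of 0.808 or above, by exact permutation or the quasi-binomial model). The interaction of trimmed means had no test of its own. Beyond the positions taken into the average, the cause was not tested.

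With the code numbers as a replicate block (4 pairs per sex), the density difference was −1.35 in ovaries (lower at 66 fish/L in 3 of 4 pairs, exact p = 0.75) and −1.57 in testes (lower in 4 of 4, exact p = 0.125, against −0.416 over all 20 testes). With 4 pairs no p under 0.125 is possible, so this test says nothing about stability. The mean over pairs equals the difference between the group means of the same fish, so the shift from the value over all fish comes from the fish used. The logit scale for the steps, the permutation of residuals within sex and the added reads at −276 were chosen after seeing the data and changed no call. Single values had counting half-widths of 0.312 to 7.68 percentage points, and ovary levels at 9 fish/L ran from 17.9 to 39.7%. How far read depth and the number of fish each limit the density comparison was not tested.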
